A study of Bos taurus with 9 samples.

Results

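Sites of H3K27ac that disappeared from the peak list after butyrate were selected by position. A control H3K27ac peak was called lost when it shared no base with any butyrate H3K27ac peak, and retained otherwise. Of the 94603 control H3K27ac peaks on nuclear chromosomes, 32283 were lost (34.1%, 95% Wilson interval 33.8 to 34.4) and 62320 were retained. The lost sites belong to a set of 8 ChIP-seq peak lists that held 673926 peaks in all.

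The cells were MDBK, an established epithelial line from bovine kidney. Control cells were left untreated and the other cells were exposed to 5 mM butyrate for 24 h. In each condition chromatin was immunoprecipitated with antibodies to H3K9ac and H3K27ac (rabbit polyclonal) and to RNA polymerase II (Pol II) and H3K9me3 (mouse monoclonal, per the labels), with 1 library per antibody and condition. Control libraries were run on lane 4 and butyrate libraries on lane 5, so that treatment and lane cannot be told apart. Since every group held 1 library, no comparison had a replicate check and no test was run. All intervals are 95% intervals for counting error only, and neighbouring peaks are not independent of each other.

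H3K27ac is an acetyl group on a tail lysine of histone H3 that is found at active enhancers and promoters. Histone acetyltransferases add it and histone deacetylases remove it. H3K9ac is another acetyl mark, concentrated at promoters in use and also present at many enhancers. Pol II marks sites where transcription starts, pauses or runs. H3K9me3 is a methyl mark of heterochromatin, on the same lysine that H3K9ac occupies, so that one H3 tail cannot carry both. Butyrate, a short-chain fatty acid from microbial fermentation in the rumen and colon, inhibits class I and II histone deacetylases and in general raises histone acetylation. Sites that leave an acetylation list under such an inhibitor run against that general direction. The butyrate H3K27ac list held 126827 peaks that no control peak overlapped, which was 3.93 gained peaks per lost peak.

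The first question was how large the lost sites were. Lost peaks were short. Their median length was 238 bp (exact binomial interval 237 to 239), against 336 bp (334 to 338) for retained peaks, a ratio of 0.708. The middle 50% of lost peaks ran from 200 to 307 bp, and that of retained peaks from 240 to 541 bp. The longest lost peak spanned 2299 bp and the longest retained peak 7401 bp. Lost sites thus made up 34.1% of the peaks but 23.8% of the bases in the control list, with 9.02 Mb against 28.9 Mb in retained peaks.

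The share of peaks lost fell from each length class to the next. Of the 14025 control peaks at the shortest listed length, 199 bp, 56.3% were lost. The share was 43.8% of longer peaks under 300 bp, 27.6% of those from 300 to under 500 bp and 10.8% of those from 500 to under 1000 bp. Among the 4594 control peaks of at least 1000 bp, 80 were lost (1.74%). A longer peak offers more bases for an overlap with a butyrate peak, so this relation follows in part from the definition of a lost site. For this reason, comparisons of other marks were also made within length classes.

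**Figure D1:**
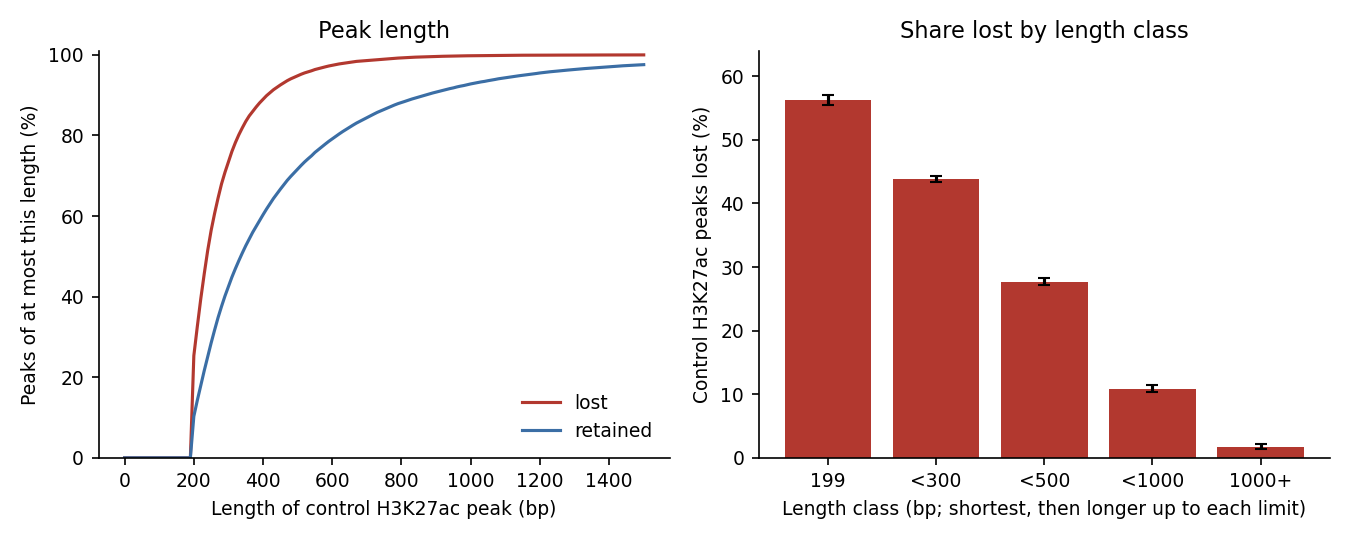
Length of lost and retained control H3K27ac peaks. The left panel plots the cumulative share of peaks (percent) against peak length (bp, shown to 1500 bp), and the right panel plots the percent of control peaks lost in each length class, with 95% Wilson intervals as error bars. The lost curve rises earlier (median 238 against 336 bp), and the bars fall from 56.3% at 199 bp to 1.74% at 1000 bp or more.

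How near the sites lay to the limit of the rule was described by counts. A butyrate H3K27ac peak ended or began within 10 bp of 253 lost peaks, within 50 bp of 1200 and within 100 bp of 2833. On the other side of the limit, 260 retained peaks shared at most 10 bp with butyrate peaks, 1448 shared at most 50 bp and 3473 at most 100 bp. Most retained peaks were far from the limit, since butyrate peaks covered a median of 92.2% of a retained peak and covered 25791 of them whole (41.4%). Butyrate peaks covered less than 50% of 8274 retained peaks (13.3%).

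The second question was which other marks lay at these sites. No other listed peak overlapped most of the lost sites. No peak of H3K9ac, Pol II or H3K9me3 overlapped 20622 lost sites (63.9%, 63.4 to 64.4) in either condition, against 15107 retained sites (24.2%, 23.9 to 24.6). In control cells alone, 75.9% of lost sites and 38.6% of retained sites had none of the other marks. After butyrate the values were 79.7% and 44.5%. The largest group of lost sites with another mark in control cells had H3K9ac only (5913 sites, 18.3%). These shares depend on counting direct overlaps. With peaks within 1 kb counted as well, control H3K9ac was at 44.1% of lost sites, butyrate H3K9ac at 35.4%, control Pol II at 11.1% and butyrate Pol II at 14.1%, and H3K9me3 was at 5.80% in control and 10.3% after butyrate. For retained sites, the control and butyrate values were 77.1% and 73.1% for H3K9ac and 14.7% and 32.1% for Pol II. They were 6.53% and 6.38% for H3K9me3.

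H3K9ac, the second acetyl mark, was less frequent at lost than at retained sites in both conditions. In control cells H3K9ac overlapped 6361 lost sites (19.7%, 19.3 to 20.1) and 58.8% of retained sites, against 45.5% of all control H3K27ac peaks. After butyrate it overlapped 4098 lost sites (12.7%, 12.3 to 13.1) and 50.3% of retained sites, against 37.5% of all. The whole H3K9ac list grew from 74114 to 115104 nuclear peaks, so these shares fell while the list rose. The differences between lost and retained sites were -39.1 percentage points in control (Newcombe interval -39.7 to -38.6) and -37.6 after butyrate (-38.2 to -37.1).

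The gap in H3K9ac was present in each length class. Once lengths were matched it was smaller in both conditions, and more so in control. At 199 bp, control H3K9ac overlapped 9.31% of lost and 30.2% of retained sites, and from 500 to under 1000 bp it overlapped 55.3% and 84.1%. When retained sites were weighted to the lengths of the lost sites, their share was 44.7% in control and 44.6% after butyrate. The 2 conditions differed in how the share depended on length. Control H3K9ac rose from 9.31% to 77.5% across the classes of lost sites, whereas butyrate H3K9ac stayed between 11.2% and 15.3% in all of them. At retained sites, butyrate H3K9ac instead rose from 42.0% at 199 bp to 76.3% at 1000 bp or more.

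By the rule, every lost site had an H3K27ac peak in control and none after butyrate. Most long lost sites also had H3K9ac in control, and few had it after butyrate. Of the 80 lost sites of at least 1000 bp, 62 overlapped H3K9ac in control and 9 after butyrate. Over all lost sites, 4855 (15.0%) had H3K9ac in control only, 1506 (4.66%) in both conditions, 2592 (8.03%) after butyrate only and 23330 (72.3%) in neither. Of the lost sites with control H3K9ac, 23.7% (22.6 to 24.7) also had a butyrate H3K9ac peak, against 61.4% (60.9 to 61.9) of the retained sites with control H3K9ac.

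The same was seen from the side of the H3K9ac peaks themselves. Of all 74114 control H3K9ac peaks, 51.4% were overlapped by no butyrate H3K9ac peak. The value was 75.0% (73.8 to 76.0) for the 5890 that lay at lost H3K27ac sites only, 40.9% for those at retained sites only, and 60.5% for those at no H3K27ac peak. The H3K9ac peaks at lost sites had a median length of 281 bp and those at retained sites 379 bp.

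**Figure D2:**
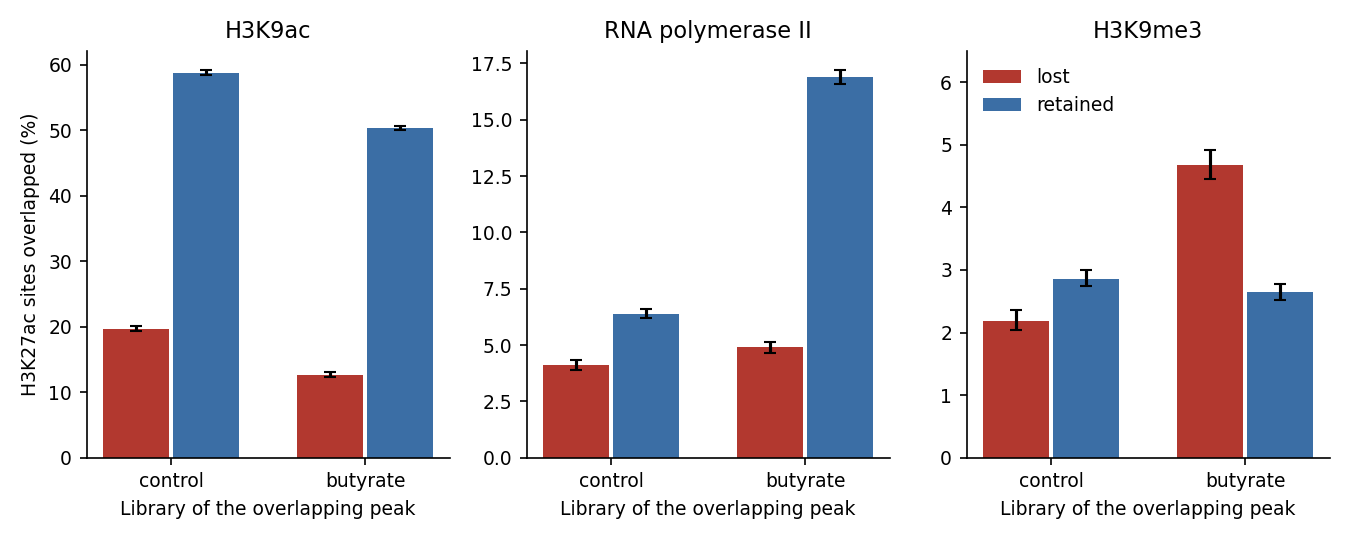
Percent of lost and retained H3K27ac sites overlapped by each other mark in control and butyrate cells, with 95% Wilson intervals. Each panel has its own vertical axis from 0. H3K9ac is lower at lost sites in both conditions (19.7% and 12.7%, against 58.8% and 50.3%), and the only pair with the lost bar higher is H3K9me3 after butyrate (4.68% against 2.65%).

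Pol II was scarce at lost sites in both conditions. In control cells Pol II overlapped 1331 lost sites (4.12%, 3.91 to 4.35) and 6.39% of retained sites, against 5.62% of all control H3K27ac peaks. After butyrate it overlapped 1583 lost sites (4.90%, 4.67 to 5.14) and 16.9% of retained sites, against 12.8% of all. The Pol II list was shorter after butyrate (31225 nuclear peaks) than in control (56225), so the share at retained sites went up while the whole list went down. At lost sites the shares in the 2 conditions differed by 0.781 points and at retained sites by 10.5 points.

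The lost sites with Pol II were for the most part different sites in the 2 conditions. Pol II was in control only at 1218 lost sites, after butyrate only at 1470 and in both at 113, so that 8.49% (7.11 to 10.1) of lost sites with control Pol II kept it. At retained sites 30.9% kept it. Of all control Pol II peaks, 95.4% were overlapped by no butyrate Pol II peak, and the value was 91.1% for those at lost sites only, 74.2% for those at retained sites only and 97.2% for those at no H3K27ac peak. The difference in butyrate Pol II between lost and retained sites widened with length, from -5.46 points at 199 bp to -34.3 points at 1000 bp or more.

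H3K9me3, the repressive mark, was rare at H3K27ac sites of both kinds, and its order between them differed between the conditions. In control cells H3K9me3 overlapped 707 lost sites (2.19%, 2.04 to 2.36) and 2.86% of retained sites (2.74 to 3.0), against 2.63% of all. After butyrate it overlapped 1511 lost sites (4.68%, 4.46 to 4.92) and 2.65% of retained sites (2.52 to 2.77), against 3.34% of all. The difference was -0.674 points in control (-0.878 to -0.465) and 2.03 points after butyrate (1.78 to 2.30). The H3K9me3 list grew from 25623 to 89478 nuclear peaks, but its share at retained sites did not rise with it. When a lost site had to lie over 1 kb from any butyrate H3K27ac peak, the control difference was 0.269 points (-0.0198 to 0.574). Its sign was then reversed, with an interval that included 0. The butyrate difference was 4.56 points under that definition, so lost sites had the higher share in both conditions. With peaks under 500 bp left out of all lists, the control and butyrate differences were -0.0723 and 0.0582 points, and both intervals included 0.

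Short lost sites carried this difference. At 199 bp butyrate H3K9me3 overlapped 5.97% of lost and 2.74% of retained sites, and from 300 to under 500 bp the shares were 4.14% and 2.58%. From 500 to under 1000 bp the difference was 0.0576 points (-0.644 to 0.965), and above that 1 of 80 lost sites had the mark. Weighting retained sites to the lengths of the lost sites left their share at 2.59%. The butyrate H3K9me3 peaks that lay at lost sites had a median length of 262 bp (256 to 269) and those at retained sites 233 bp (229 to 238).

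Sites that had H3K9me3 together with H3K27ac in control cells were more often seen with H3K9me3 again after butyrate if H3K27ac was lost. H3K9me3 was in both conditions at 225 lost sites, in control only at 482 and after butyrate only at 1286. Thus 31.8% (28.5 to 35.3) of the lost sites with control H3K9me3 had it after butyrate, against 12.4% (10.9 to 14) of the retained sites with control H3K9me3. Of all control H3K9me3 peaks, 83.9% had no butyrate H3K9me3 peak over them. The value was 67.9% (64.3 to 71.2) at lost sites only and 88.6% (87.1 to 90) at retained sites only.

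H3K9me3 and Pol II peaks tended to fall on the same lost sites in control cells. H3K9me3 overlapped 12.3% (10.7 to 14.2) of the lost sites with control Pol II, against 2.19% of all lost sites. It overlapped 10.1% (9.19 to 11.1) of the retained sites with control Pol II, against 2.86% of all retained sites. All libraries were called against 1 input library, and the part of that shared input in joint peaks was not tested. Both marks were more frequent on chromosomes 5 and 14, at lost and at retained sites. The joint shares above pool all chromosomes and were not computed with these left out. Of the 3521 lost sites on these 2 chromosomes, 12.4% had control Pol II, 7.67% control H3K9me3 and 14.5% butyrate H3K9me3, against 3.11%, 1.52% and 3.48% of the 28762 on the other 28. H3K9ac was at 20.1% and 19.7% in control, and at 17.1% (15.9 to 18.4) and 12.2% after butyrate. Butyrate Pol II was at 7.21% and 4.62%. At the retained sites of chromosomes 5 and 14, control Pol II was at 13.4% and 12.7%, and control H3K9me3 at 8.63% and 7.23%. Butyrate H3K9me3 was at 7.11% and 6.57% of them. Over all retained sites these marks were at 6.39%, 2.86% and 2.65%. Without chromosomes 5 and 14, the butyrate H3K9me3 difference between lost and retained sites was 1.34 points (1.10 to 1.59) in place of 2.03.

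The third question was where lost sites lay relative to the sites that stayed. Lost sites were farther from retained sites than retained sites were from each other. The median gap from a lost peak to the nearest retained peak was 3.91 kb (3.74 to 4.07), and that from a retained peak to another retained peak was 0.499 kb (0.489 to 0.508). The first value depends on the definitions. It was 14.4 kb when loss required no butyrate peak within 1 kb and 13.5 kb when peaks under 1 kb apart were joined. The second value was not recomputed under these definitions, so 0.499 kb is not the counterpart of either. A retained peak lay within 1 kb of 31.5% of lost peaks and of 62.6% of retained peaks. The gaps to the nearest lost peak were alike for both kinds, at 6.84 kb (6.61 to 7.04) from another lost peak and 6.58 kb (6.46 to 6.72) from a retained peak.

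Even so, butyrate H3K27ac was often nearby. Counting every butyrate H3K27ac peak, the nearest lay at a median of 1.05 kb from a lost peak, and within 1 kb for 49.1% of them. Gained peaks were closer to retained sites (median 1.46 kb) than to lost sites (3.62 kb). The distance to retained sites depended on length. Lost peaks of 199 bp were 11.1 kb from the nearest retained peak and those of at least 1000 bp were 0.513 kb away, against 1.50 and 0.209 kb for retained peaks of the same lengths. Long lost peaks thus lay mostly beside retained ones, and the shortest lost peaks lay apart.

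Marks at lost sites differed with this distance. Control H3K9ac overlapped 29.5% of the lost sites under 1 kb from a retained peak, 13.8% of those at 5 to 20 kb and 8.61% (7.56 to 9.80) of those at 100 kb or more. Butyrate H3K9me3 went the other way, with 1.46% (1.24 to 1.71) under 1 kb, 5.80% at 5 to 20 kb and 9.74% (8.62 to 11.0) at 100 kb or more. Control H3K9me3 had values of 0.826%, 3.0% and 4.95% in the same bands. The rise was not limited to the repressive mark, since control Pol II was at 1.99% (1.73 to 2.28), 4.89% and 6.62% (5.69 to 7.68). Butyrate Pol II was at 6.18%, 4.16% and 4.70%. Butyrate H3K9ac was at 11.5% under 1 kb, highest at 1 to 5 kb (15.8%) and lowest at 100 kb or more (7.20%).

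Length moved with distance too, since the median length of lost peaks was 264 bp under 1 kb and 212 bp at 100 kb or more. Without chromosomes 5 and 14, butyrate H3K9me3 still overlapped 1.18% of lost sites under 1 kb and 7.79% at 100 kb or more. The farthest band held 2403 lost sites (7.44%).

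**Figure D3:**
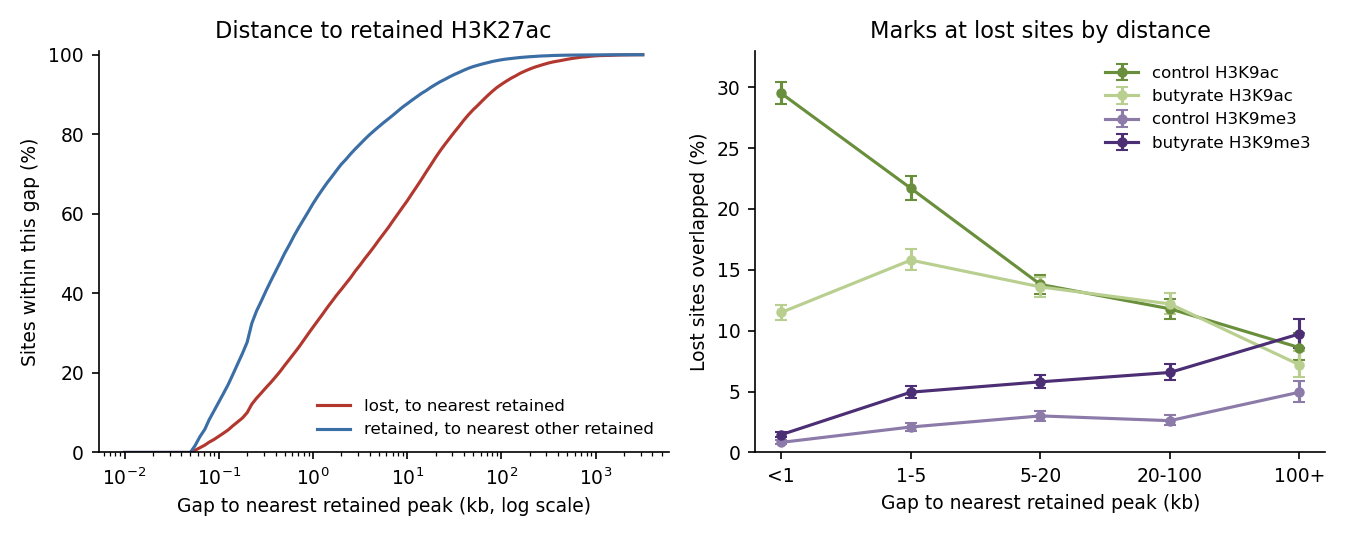
Distance to retained H3K27ac peaks. The left panel plots the cumulative share of peaks (percent) against the gap to the nearest retained peak (kb, log axis) for lost and retained sites, and the right panel plots the percent of lost sites overlapped by other marks in bands of that gap, with 95% Wilson intervals. The median gap is 3.91 kb for lost and 0.499 kb for retained sites, control H3K9ac falls from 29.5% to 8.61% with distance and butyrate H3K9me3 rises from 1.46% to 9.74%.

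Control H3K27ac peaks less than 0.0125 Mb apart were joined into domains, as is done when clusters of enhancers are sought. Lost sites were isolated more often than retained ones. Of the 10240 domains made of 1 peak, 6652 (65%) were lost. The share of peaks lost was 39.2% in domains of 2 to 4 peaks, 30.9% in those of 5 to 9 and 24.9% in those of 10 or more. Even so, 22262 lost peaks (69.0%) lay in the 9261 domains that also held retained peaks, and 10021 (31.0%) lay in the 8088 domains that were lost entirely.

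Lost sites also followed one another along the chromosomes. The next control peak was lost after 47.0% (46.5 to 47.6) of lost peaks and after 27.4% (27.1 to 27.8) of retained peaks. Runs of 1 lost peak with retained peaks on both sides numbered 9601, and the longest run held 17. That run lay at chr14:64244324-65022358 (UMD3.1) and spanned 778 kb. Its peaks were short, from 199 to 311 bp with a median of 208 bp. The run also held 35 butyrate H3K27ac peaks, most of them between -388.6 and -327.6 kb from its centre. None was listed from -293.3 to 380.9 kb from the centre. The whole run held 22 control and 64 butyrate H3K9me3 peaks, and butyrate H3K9me3 overlapped 5 of the 17 lost sites. The whole H3K9me3 list grew from 25623 to 89478 nuclear peaks, and butyrate H3K9me3 overlapped 15.8% of all lost sites on chromosome 14.

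The domain with the most peaks among those lost entirely was on chromosome 10. It lay at chr10:30004633-30037174 (32.5 kb) and held 11 control H3K27ac peaks of 199 to 828 bp. After butyrate no H3K27ac peak was listed in it, and the nearest was 15.0 kb away. In the other lists, it held 10 control and 2 butyrate H3K9ac peaks, 2 control and 0 butyrate Pol II peaks, and 1 control and 7 butyrate H3K9me3 peaks. Control H3K9ac overlapped 8 of the 11 lost sites, and butyrate H3K9ac and butyrate H3K9me3 overlapped 2 each.

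This domain lay inside a wider stretch in which both acetyl lists were shorter after butyrate. Between the pair of chromosome 10 peaks that were among the 5 longest lost peaks (chr10:29970229-30109450, 139 kb), 35 of 45 control H3K27ac peaks were lost (77.8%) and 12 butyrate H3K27ac peaks were listed. H3K9ac went from 56 to 12 peaks, Pol II from 7 to 2 and H3K9me3 from 5 to 21. The whole nuclear lists went from 74114 to 115104, from 56225 to 31225 and from 25623 to 89478 peaks for these marks. Control H3K9ac overlapped 27 of the 35 lost sites, whose median length was 340 bp. The bounds of this stretch were chosen after its values were seen. Genes in it are not given here, because the gene table at hand was of another assembly.

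**Figure D4:**
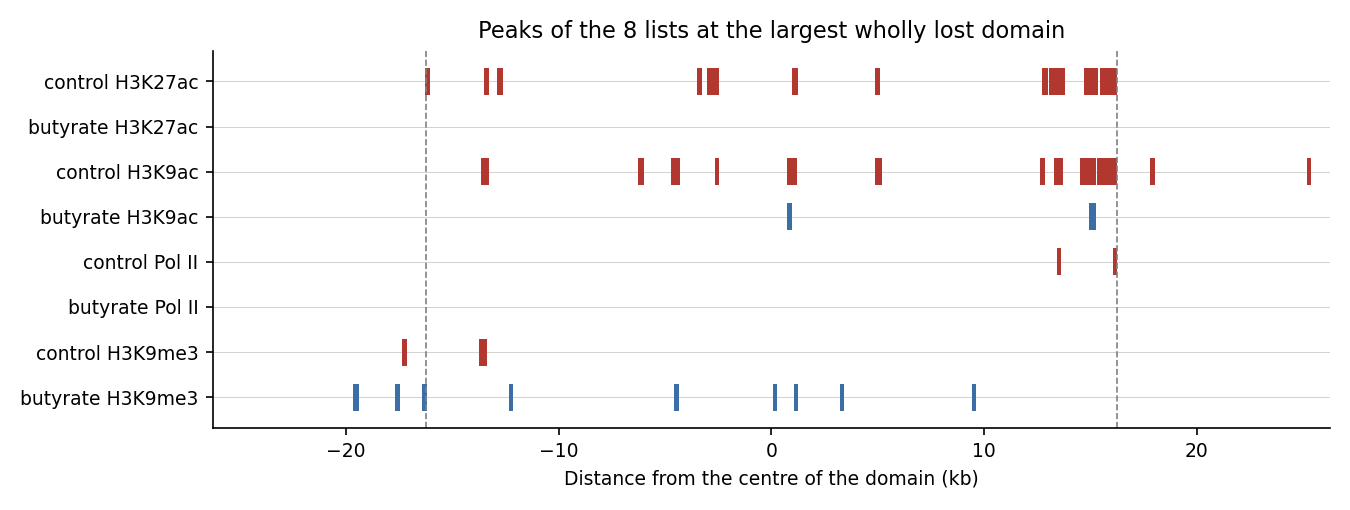
Peaks of the 8 lists around the domain on chromosome 10 in which all 11 control H3K27ac peaks were lost. The horizontal axis is the distance from the domain's centre (kb), each row is 1 list each bar is 1 peak (control red, butyrate blue), and dashed lines mark the domain's ends. The butyrate H3K27ac row is empty over the domain, and the butyrate H3K9me3 row has 7 peaks there against 1 in control.

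The longest lost peaks were examined singly. The longest, chr14:32786576-32788874 (2299 bp), had a control H3K9ac peak over 11.5% of its length and no peak of any other list. The nearest retained site lay 0.625 kb from it and the nearest butyrate H3K27ac peak 1.01 kb. It was followed in length by chr10:30107317-30109450 (2134 bp), with control H3K9ac over 52.7% and no other mark in either condition. H3K27ac was absent after butyrate by the rule, and these 2 sites also left the H3K9ac list.

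At chr10:29970229-29972268 (2040 bp), next in length, all 3 kinds of other mark were seen. Control H3K9ac covered 93.3% of it and control Pol II 10.9%. After butyrate no peak of either overlapped it, and an H3K9me3 peak covered 381 bp (18.7%). The nearest butyrate Pol II peak lay 0.112 kb away. A butyrate H3K27ac peak lay 0.0920 kb away, so this site lay just inside the limit of the rule. The next in length, chr2:36245973-36247896 (1924 bp) and chr2:36225080-36226931 (1852 bp), were 19.0 kb apart, and each had only control H3K9ac, over 26.1% and 30.6%.

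Lost sites with both H3K9ac and Pol II in control cells did not have 1 outcome. The second longest lost site with both control H3K9ac and control Pol II, chr13:69058029-69059645 (1617 bp), had control H3K9ac over 93.9% and control Pol II over 31.4%. After butyrate it had no H3K9ac peak and a Pol II peak over 13.2%. At chr29:44280401-44281675 (1275 bp), control Pol II covered 21.0% and butyrate Pol II 100%, while H3K9ac went from 38.4% to no peak.

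Among lost sites with butyrate H3K9me3, those next in length after the chromosome 10 site were chr3:40383757-40384725 (969 bp) and chr22:279153-280104 (952 bp). The first had butyrate H3K9me3 over 64.1% and butyrate H3K9ac over 51.3% of its length, after control H3K9ac over 75.5%. The second had butyrate H3K9me3 over 21.1% and no butyrate H3K9ac, after control H3K9ac over 54.5% and control Pol II over 23.3%. Peaks of an acetyl mark and of H3K9me3 in the same list region come from separate libraries of many cells, and do not show that one cell carried both.

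At each of the 3 longest lost sites with H3K9ac in both conditions, H3K9ac covered a smaller part after butyrate. The longest, chr7:102972072-102973407 (1336 bp), had H3K9ac over 66.3% in control and 41.6% after butyrate. At chr6:114622624-114623917 (1294 bp) the values were 84.6% and 14.4%, with a butyrate Pol II peak over 19.2%, and at chr6:86479770-86480911 (1142 bp) they were 65.2% and 22.2%. The 1294 bp site on chromosome 6 stood alone, with the nearest butyrate H3K27ac peak 49.2 kb away.

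The last question was whether losses were spread evenly over the genome. They were spread over all 30 nuclear chromosomes. The share lost ran from 29.8% on chromosome 15 to 37.4% on chromosomes 14 and 25 among autosomes. The X chromosome had a higher share, with 839 of 1583 peaks lost (53.0%, 50.5 to 55.4) against 33.8% (33.5 to 34.1) of autosomal peaks. The higher share on X was found at 199 bp (70.1% against 56.0%) and from 500 to under 1000 bp (26.8% against 10.6%). At 1000 bp or more, 2 of 42 peaks were lost on X (4.76%, 1.32 to 15.8), against 1.71% on autosomes, a difference within the interval.

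The directions described above recurred along the genome. Lost peaks had the shorter median on 30 of 30 chromosomes. Control and butyrate H3K9ac and control and butyrate Pol II were lower at lost than at retained sites on 30 of 30, and control H3K9me3 on 25. Control Pol II was nearly equal at both kinds on chromosome 14 (12.6% against 12.7%) and X (2.50% against 2.55%). Butyrate H3K9me3 was lower at lost sites on 0 of 30. Its share of lost sites ran from 1.88% on chromosome 19, where it nearly equalled that of retained sites (1.86%), to 15.8% on chromosome 14 (6.57% of retained sites). Chromosomes come from the same libraries and are not replicates.

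**Figure D5:**
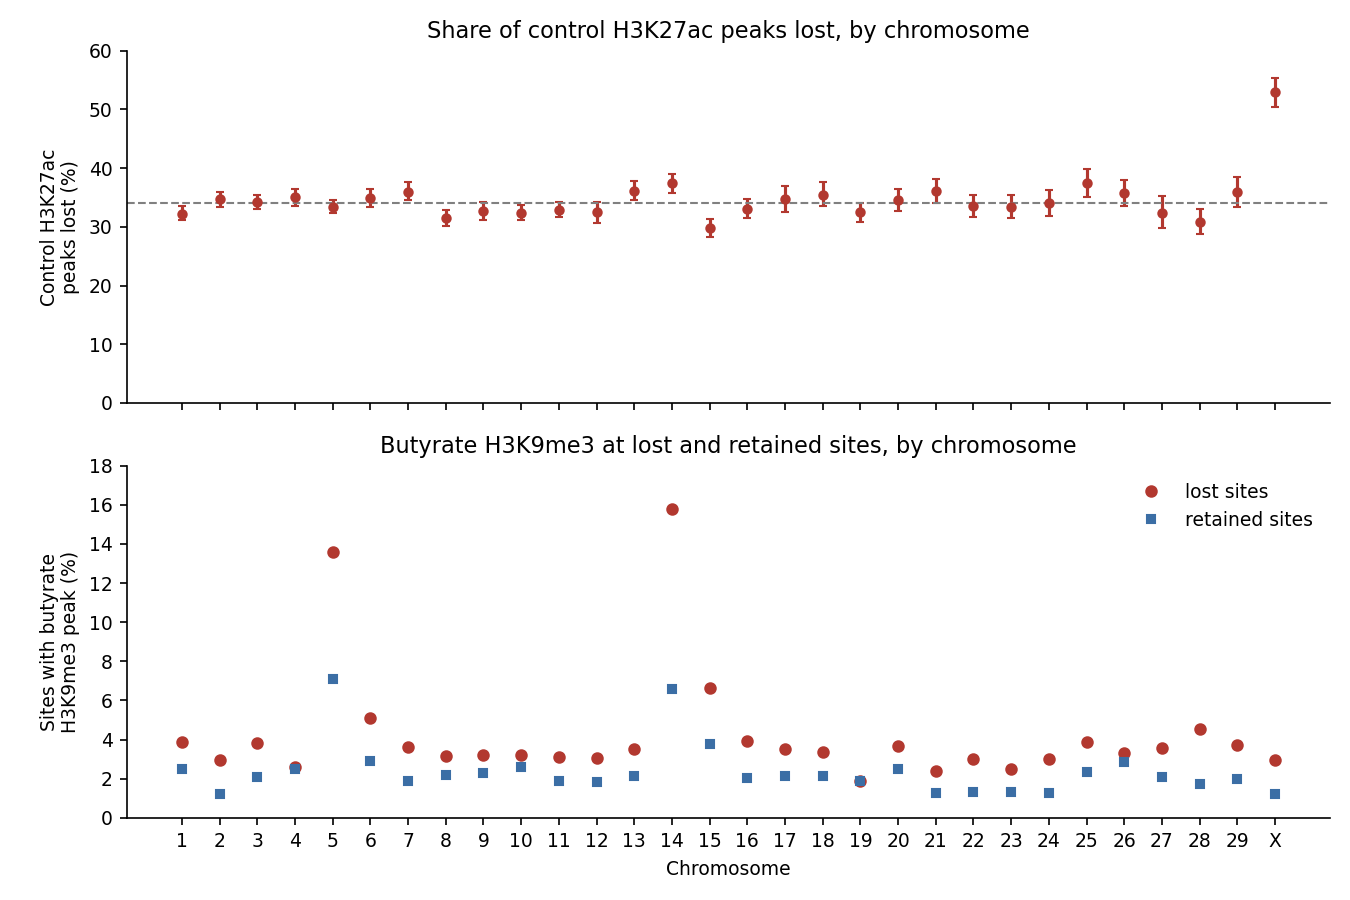
Lost sites by chromosome. For each of the 30 nuclear chromosomes, the upper panel plots the percent of control H3K27ac peaks lost with 95% Wilson intervals and a dashed line at the genome's 34.1%, and the lower panel the percent of lost and retained sites overlapped by butyrate H3K9me3. Autosomes lie between 29.8% and 37.4% lost and X at 53.0%, and the lost sites lie above the retained sites for butyrate H3K9me3 on all 30 chromosomes, farthest on chromosome 14 and with almost no gap on chromosomes 4 and 19.

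On the scale of 1 Mb windows, 2385 of the 2432 windows with a control peak held a lost one. Lost peaks outnumbered gained peaks in 284 of them. In the 1538 windows with at least 20 control peaks, the share lost had a median of 34.3%, with 10% of windows below 21.2% and 10% above 50%. The most lost peaks were in the window at chr16:37000001-38000000, with 93 of 171 (54.4%). The next were chr11:25000001-26000000, with 68 of 225 (30.2%), and chr6:20000001-21000000, with 67 of 123 (54.5%).

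H3K27ac counts moved in different directions in these 3 windows, while H3K9ac counts fell and H3K9me3 counts rose in each. On chromosomes 16 and 6 H3K27ac went from 171 to 164 and from 123 to 106 peaks, so these windows did not share the rise of the whole list. There, H3K9ac went from 173 to 124 and from 125 to 83 peaks, and H3K9me3 from 24 to 52 and from 14 to 48. Control H3K9ac overlapped 53 of the 93 lost sites on chromosome 16 and 32 of the 67 on chromosome 6. The chromosome 11 window instead rose from 225 to 297 H3K27ac peaks and was dense in peaks to begin with. In it, H3K9ac went from 162 to 128 peaks and H3K9me3 from 10 to 20, and control H3K9ac overlapped 13 of the 68 lost sites. The whole H3K9me3 list grew from 25623 to 89478 nuclear peaks. Pol II overlapped 6 lost sites in control and 1 after butyrate on chromosome 16, 0 and 3 on chromosome 11, and 0 in both conditions on chromosome 6.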

How the data were processed

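Peak lists of 8 ChIP-seq libraries were analysed, 1 per antibody and condition, grouped by their labels. The input library (1) was not analysed here. According to the methods of the study and the submitters' processing notes, reads of 75 nt were trimmed with Trim Galore 0.4.1 and aligned to the cattle assembly UMD3.1 with BWA, uniquely placed reads with few mismatches were kept, and the authors called peaks in each library with MACS2 at default settings against the MDBK input. The deposited lists hold only chromosome, start and end, in bp, with no score, height or read count, so depth and its precision are unknown here. More peaks are called from deeper libraries, and the study lists more aligned reads for the butyrate than for the control H3K27ac library. A site missing from a list may therefore still carry the mark below the limit of calling, and a called peak may lie near it.

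Positions were taken as 0-based at the start, so printed starts are higher by 1. An overlap was 1 bp or more. Shares have Wilson intervals, differences Newcombe intervals and medians exact binomial intervals. Mitochondrial peaks were left out. The overlap step was tested on simulated data. Named regions followed a rule: the 5 longest lost peaks, the 3 longest with control H3K9ac and Pol II, with butyrate H3K9me3, or with H3K9ac in both conditions, the largest domain lost entirely, the longest run of lost peaks and the 3 windows of 1 Mb with the most lost peaks. The members, the rule and the comparisons were chosen with earlier results of these data known. Alternatives were a minimum length of 500 bp, other definitions of loss and overlap, joined peaks, chromosome subsets, lists of equal size, and weighting by length or list order. The gene table at hand was of another assembly (ARS-UCD2.0), so no gene names, sequences or motifs are given. Analyses used Python 3.11.15, numpy 2.4.6, pandas 2.3.3, scipy 1.17.1 and matplotlib 3.10.9.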

Additional observations from a re-analysis of the deposited data

Results flagged for a closer look

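The share of H3K27ac sites overlapped by H3K9me3 rose at lost sites and was nearly level at retained sites. From control to butyrate it changed by 2.49 points at lost sites and by -0.218 points at retained sites. The difference was not tested because each group had 1 library. At retained sites the control and butyrate intervals overlapped (2.74 to 3.0 and 2.52 to 2.77). Their share fell on some chromosomes (8.63% to 7.11% on chromosome 5) and rose on others (2.18% to 2.48% on chromosome 1). The control H3K27ac list also held 14 peaks on the mitochondrial genome, which has no histones. None of them entered the comparisons, and the butyrate H3K27ac list held 10 there.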

How the results depend on the processing

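The conditions had 1 library each, so that counting error is the only error given. No paired analysis was possible because neither condition had a second library of any antibody. Of 99 alternative values of the 9 main results, 35 lay within the interval of the main value. Outside it lay 63 without a reversed sign, some nearer to 0 than the main value and some farther, and 1 reversed. Reversal was checked only for the differences between lost and retained sites. The reversed value was the control H3K9me3 difference, 0.269 points (-0.0198 to 0.574), when a site was lost only with no butyrate H3K27ac peak within 1 kb. The cause was not tested. Under that definition 17.4% of sites were lost, the length ratio was 0.676, the distance to a retained site 14.4 kb, and the differences were -44.3 and -39.1 points for H3K9ac (control, then butyrate, as in all that follows), -1.04 and -12.9 for Pol II, and 4.56 for butyrate H3K9me3. With peaks under 500 bp left out of every list, the share lost was 34.9%, the ratio 0.822, the distance 7.13 kb, and the differences -37.6 and -22.9 for H3K9ac, with -0.168 and -2.81 for Pol II and with -0.0723 (-0.142 to 0.00641) and 0.0582 (-0.0499 to 0.198) for H3K9me3. Neither H3K9me3 difference was distinguishable from 0 there. With peaks of 199 bp left out, the values were 31.6%, 0.724, 3.06 kb, -38.5 for control H3K9ac, -1.64 and -10.7 for Pol II and 1.55 for butyrate H3K9me3. With sites called lost when under 50% covered, they were 42.9%, 0.755, 3.73 kb, -34.3 and -37.0 for H3K9ac, and -0.908 and 1.54 for H3K9me3. With peaks under 1 kb apart joined, they were 0.372, 13.5 kb, -45.6 and -45.8 for H3K9ac, with -5.01 and -19.9 for Pol II and with -1.76 and 2.40 for H3K9me3. With the butyrate H3K27ac list reduced to the size of the control list by length, they were 49.5%, 0.688, 4.86 kb, -37.0 and -39.8 for H3K9ac, with -3.29 and -13.5 for Pol II and with -1.14 and 1.21 for H3K9me3. Weighting by length gave -25.0 and -31.9 for H3K9ac, with -1.36 and -6.78 for Pol II and with -0.351 for control H3K9me3. Weighting by list order, chosen after seeing the data, gave -31.2 and -35.8 for H3K9ac and -9.03 for butyrate Pol II. Counting other marks within 1 kb gave -33.0 for control H3K9ac, -3.64 and -18.1 for Pol II and with 3.97 for butyrate H3K9me3. Autosomes alone gave a share of 33.8%. Without chromosomes 5 and 14 the distance was 3.64 kb and the butyrate H3K9me3 difference 1.34.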

Other observations

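The deposited control list is not in order of position, and longer peaks tend to come first. What its order means is not stated in the sources used here. With the list divided into 10 equal parts from the top, the share of peaks lost was 12.4, 25.1, 27, 26.3, 30.1, 45.5, 44.8, 47.5, 43.2 and 39.4%.

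Among 1 Mb windows with at least 20 control peaks, those with the largest shares lost, which were chosen after their values were seen, included a pair of neighbours on the X chromosome. At chrX:60000001-61000000, 24 of 31 control H3K27ac peaks were lost (77.4%), and at chrX:61000001-62000000, 16 of 20 (80.0%). After butyrate the first window held 17 H3K27ac peaks, 9 of them gained, and the second 25, of which 20 were gained, so the second held more peaks than in control. H3K9ac went from 23 to 1 and from 8 to 5 peaks in these windows. H3K9me3 was listed with 0 control peaks in both, and with 2 and 3 peaks after butyrate. At chr5:99000001-100000000, 16 of 21 were lost (76.2%) while 23 were gained, giving 28 after butyrate. There H3K9ac rose from 12 to 34 peaks, Pol II went from 84 to 17 and H3K9me3 from 41 to 88.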
